A study of Mus musculus with 9 samples.

Results

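The collagen chain genes are the genes whose protein products assemble into collagens, the main structural proteins of the extracellular matrix. Members were the protein-coding genes of GENCODE vM21 (mouse build GRCm38/mm10) whose symbol is *Col*, a number, *a* and a number, and 44 genes of the 21755 protein-coding genes on the autosomes and X met this rule. Chromatin immunocleavage sequencing (ChIC-Seq), in which an antibody brings a nuclease to its target in fixed cells and the released DNA is sequenced, had been performed with antibodies to PBRM1, which belongs to the PBAF type of SWI/SNF chromatin remodelers, and to BRG1, an ATPase that drives such remodelers. All libraries came from WT (wild-type) primary oviductal muscle cells of mice 8 to 12 weeks old on Day 2 of pregnancy, with 50000 cells per library, and the experiment asked where the proteins bind directly. The cells were freed from oviducts by trypsin, collagenase type I and dispase, filtered, plated for some hours and fixed, so they were a short-term culture and not sorted by a marker. PBRM1 and BRG1 each had 3 replicate libraries with 1 peak list per library and 1 further list called on the 3 replicates pooled, which gives 8 lists in all, while 3 samples with IgG were not analysed here. The sources used here do not say whether replicates came from separate animals, so that the spread between them may be technical.

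Each collagen chain carries a long run of repeats with glycine at regular positions, and chains wind around each other into a helix. Fibrillar chains (types I, II, III, V, XI, XXIV and XXVII) pack into fibrils that carry tension, and type IV chains join into the sheet of the basement membrane that surrounds every smooth muscle cell. The remaining chains decorate fibrils, form beaded filaments or short networks, anchor basement membranes, or span the cell membrane. In the genome the type IV genes lie as head-to-head pairs, *Col4a1* with *Col4a2*, *Col4a3* with *Col4a4* and *Col4a5* with *Col4a6*, in which neighbouring genes are read in opposite directions from starts that lie close together. The 44 genes were grouped as 11 fibrillar, 6 type IV and 27 other chains. They were long, with a median length of 114 kb against 17.4 kb over all protein-coding genes, and had a median of 4 annotated starts against 3.

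The sites on which the results turned are shown first, read from GRCm38 on the plus strand. A longer window centred on the summit is given for the *Col4a1*, *Col4a2* and *Col16a1* sites away from promoters, as sites found in all 6 replicate lists at genes of the basement membrane and of fibril surfaces. A shorter window is given for the *Col7a1* intron and for the *Col11a1* site with more PBRM1 than BRG1 signal. The same length is given for the internal start of *Col25a1* with more BRG1 than PBRM1 signal. All 71 bases between *Col4a4* and *Col4a3* are given as the only type IV promoter found in all 6 lists. Capitals mark the words searched: TGANTCA (AP-1), GGAATG (TEAD), TGTGGT (RUNX) and GGGCGG (Sp/KLF), each on either strand, so that a word on the minus strand appears as its reverse complement. The *Col11a1* window and the bases between *Col4a4* and *Col4a3* held none of them.
The windows are, in the order printed, chr8:11259894-11260094, chr8:11411967-11412167, chr4:130037190-130037390, chr4:130050580-130050780, chr9:108978164-108978264, chr3:114018794-114018894, chr3:130180716-130180816 and chr1:82586850-82586920.
Col4a1 intron 2: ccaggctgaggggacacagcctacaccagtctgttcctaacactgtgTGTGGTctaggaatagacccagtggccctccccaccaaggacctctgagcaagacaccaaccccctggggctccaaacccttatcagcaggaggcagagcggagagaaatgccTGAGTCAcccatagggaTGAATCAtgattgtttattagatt
Col4a2 intron 16: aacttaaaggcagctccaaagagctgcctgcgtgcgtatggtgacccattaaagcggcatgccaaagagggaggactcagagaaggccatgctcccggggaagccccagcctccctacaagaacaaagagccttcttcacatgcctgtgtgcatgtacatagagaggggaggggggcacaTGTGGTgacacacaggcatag
Col16a1 upstream: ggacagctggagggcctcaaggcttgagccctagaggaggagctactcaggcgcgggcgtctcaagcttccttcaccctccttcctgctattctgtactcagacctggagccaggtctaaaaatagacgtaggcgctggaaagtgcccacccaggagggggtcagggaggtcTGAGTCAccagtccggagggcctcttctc
Col16a1 intron 2: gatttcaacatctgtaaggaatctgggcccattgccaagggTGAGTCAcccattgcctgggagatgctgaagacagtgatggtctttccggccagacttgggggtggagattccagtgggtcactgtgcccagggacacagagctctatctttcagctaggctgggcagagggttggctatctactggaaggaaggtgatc
Col7a1 intron 99: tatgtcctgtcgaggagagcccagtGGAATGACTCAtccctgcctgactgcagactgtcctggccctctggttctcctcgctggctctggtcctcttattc
Col11a1 upstream: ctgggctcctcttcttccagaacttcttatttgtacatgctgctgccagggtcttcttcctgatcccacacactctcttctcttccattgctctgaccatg
Col25a1 internal start: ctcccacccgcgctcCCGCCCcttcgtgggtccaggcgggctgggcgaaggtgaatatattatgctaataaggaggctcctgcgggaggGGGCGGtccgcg
Col4a4-Col4a3: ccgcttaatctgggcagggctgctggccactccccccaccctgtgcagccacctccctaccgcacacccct

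The libraries held 14284532 to 23992352 fragments and 31970 to 39467 peaks each, and the PBRM1 libraries were deeper than every BRG1 library. Signal is given below in ppm, the pileup (the number of fragments that cover the summit of a peak) scaled to a library of 1000000 fragments. The lowest pileup called in a library was 0.333 to 0.42 ppm, so a gene without a peak may carry signal under that level. Among marker genes, a promoter peak (summit within 2 kb of any annotated start) was found in all 6 lists for 3 of 8 smooth muscle genes (*Acta2*, *Tagln* and *Smtn*), for none of 7 oviduct epithelial, 4 fibroblast and 4 endothelial genes, and *Ptprc*, *Cd68* and *Cd3e* of leukocytes had none in any replicate list. The smooth muscle share of 37.5% was near the 41.8% of all protein-coding genes, so a promoter peak did not mark smooth muscle genes here. The smooth muscle genes *Cnn1* had no promoter peak in any list and *Myh11* had 1 in a single replicate list, while *Thy1* of fibroblasts and *Kdr* of endothelium each had 1 in 5 lists. A promoter peak is not a measure of expression, and the part of other cells in the collagen peaks was not tested.

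Most collagen promoters were neither steadily bound nor empty. A promoter peak was found in all 6 replicate lists for 3 of 44 collagen genes, against 41.8% of all protein-coding genes. A peak was found in no replicate list for 8 collagen genes (18.2%), against 34.3%. The other 33 genes (75%) had a promoter peak in 1 to 5 lists, against 23.9% of all genes. The 3 genes found in every list were the type IV pair *Col4a3* and *Col4a4*, which share a peak, and *Col25a1*, a transmembrane collagen. The 8 genes found in none were *Col13a1* and *Col17a1* (transmembrane), *Col19a1*, *Col20a1*, *Col9a1* and *Col9a3* (chains that associate with fibril surfaces), and *Col6a4* and *Col6a6* (beaded filaments). The counts per library were 24, 16 and 23 collagen genes for PBRM1 replicates 1 to 3 and 22, 22 and 26 for BRG1, or 21 ± 4.36 and 23.3 ± 2.31 (SD, n = 3). The ranges of both antibodies overlapped, and PBRM1 replicate 2 stood lowest with 36.4% of collagen genes although it held 51.2% of all genes. Without that library, 7 collagen genes had a peak in all lists left, and without BRG1 replicate 1 the number was 5. Support in several lists was not always support at one site, since a gene can have several starts. Of 31 collagen genes with a peak in at least 2 lists, the summits of the highest peaks of the libraries lay over 2 kb apart in 6, namely *Col26a1* (126 kb), *Col18a1* (76.0 kb), *Col6a3* (72.7 kb), *Col7a1* (29.2 kb), *Col1a2* (2.53 kb) and *Col2a1* (2.34 kb). No collagen gene was complete for one antibody (3 lists) and empty for the other. Such genes were rare at large, with 23 complete for PBRM1 alone and 164 for BRG1 alone among all 21755 protein-coding genes.

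**Figure D1:**
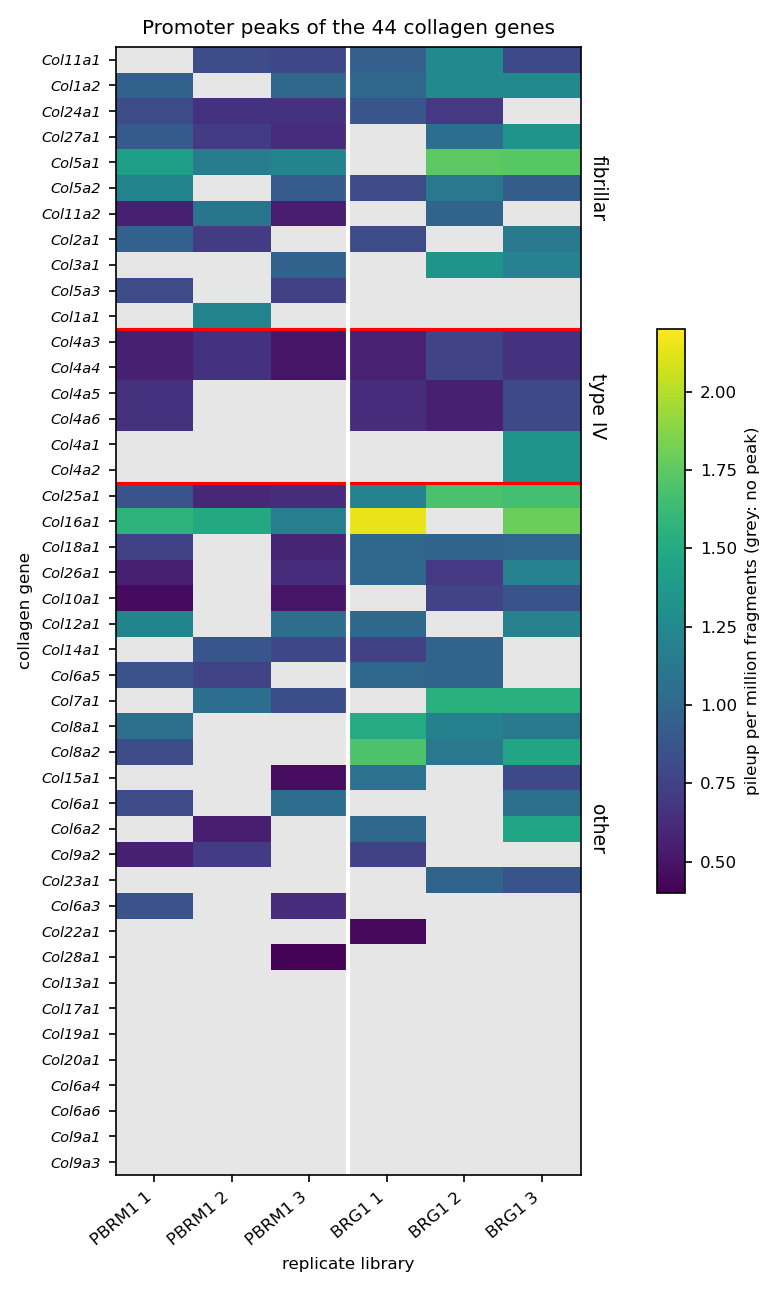
Highest promoter scaled pileup in ppm (colour) for each of the 44 collagen genes (rows, by class and number of lists) in the 6 replicate libraries (columns), with grey where no peak was called. Unbroken rows are seen for *Col4a3*, *Col4a4* and *Col25a1* alone, the fibrillar rows are mostly filled, and the lowest 8 rows are grey throughout.

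The pooled lists, which rest on more fragments, filled most of these gaps. The pooled PBRM1 list held a promoter peak at 38 collagen genes (86.4%), against 66.0% of all genes, and the pooled BRG1 list held 1 at 39 (88.6%), against 67.8%. Of the 8 genes without a replicate peak, *Col13a1* and *Col19a1* had a peak in both pooled lists, *Col6a4* and *Col6a6* in the BRG1 list, and *Col9a3* in the PBRM1 list. *Col17a1*, *Col20a1* and *Col9a1* had none in any of the 8 lists. The collagen peaks were low for promoters. Their median was 0.646 ppm in the pooled PBRM1 list, with a range of 0.226 to 1.23, against 0.969 over all promoters with a peak. In the pooled BRG1 list the median was 0.885, with a range of 0.376 to 1.55, against 1.46. The same order was seen in every replicate library: the median over collagen promoters with a peak was 0.74 ± 0.0709 with PBRM1 and 1.04 ± 0.108 with BRG1 (SD, n = 3), against 1.19 ± 0.129 and 1.70 ± 0.0248 over all such promoters. The pooled BRG1 level was above the pooled PBRM1 level at 34 of the 36 collagen genes with both, a share near the 96.8% of all genes with both.

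Each of the 11 fibrillar genes had a promoter peak in at least 1 replicate list and in both pooled lists, with a median of 5 lists, although none was found in all 6. The number of fibrillar genes with a promoter peak was 8 ± 1 of 11 with PBRM1 (72.7% ± 9.09) and 6.67 ± 1.53 with BRG1 (60.6% ± 13.9; SD, n = 3), against 52.5% ± 1.45 and 56.9% ± 1.60 of all genes. The 6 genes in 5 lists were *Col1a2*, *Col5a1*, *Col5a2*, *Col11a1*, *Col24a1* and *Col27a1*. *Col5a1*, whose chain regulates fibril diameter, had the highest pooled fibrillar level, with 1.13 (PBRM1) and 1.39 (BRG1) ppm. It stood at 1.42, 1.16 and 1.21 in PBRM1 replicates 1 to 3 and at 1.75 and 1.73 in BRG1 replicates 2 and 3, with no peak in BRG1 replicate 1. The BRG1 values were thus above each PBRM1 value where a peak was called.

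The chains of type I collagen, the main protein of fibrous tissue, differed in support. *Col1a2* had values of 0.96 and 1.00 in PBRM1 replicates 1 and 3 and of 1.01, 1.26 and 1.26 in BRG1 replicates 1 to 3, and no peak in PBRM1 replicate 2. These peaks were not at a single site, since those of PBRM1 replicate 3 and BRG1 replicate 2 lay at -1562 and -1577 bp from the nearest start and the others within 63 bp of another start, up to 2.53 kb away. *Col1a1* had a promoter peak only in PBRM1 replicate 2, at 1.21 ppm, the library in which *Col1a2* had none. *Col3a1*, the chain of type III collagen that accompanies type I in distensible tissue, had 0.959 in PBRM1 replicate 3 and 1.33 and 1.20 in BRG1 replicates 2 and 3. In the pooled lists *Col1a1* reached 0.953 (PBRM1) and 1.37 (BRG1), but its fold enrichment over the local background was low, at 2.17 and 2.39, against medians over all promoters of 4.54 and 5.49. *Col2a1* and *Col11a2*, chains of cartilage fibrils, had peaks in 4 lists each, and *Col5a3* in PBRM1 replicates 1 and 3 only.

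The type IV pairs stood apart from each other. Between *Col4a4* and *Col4a3* the shared promoter peak measured 0.556, 0.662 and 0.50 ppm in PBRM1 replicates 1 to 3 and 0.566, 0.77 and 0.665 in BRG1 replicates 1 to 3. The groups overlapped, and their means of 0.573 ± 0.0823 and 0.667 ± 0.102 (SD, n = 3) were not told apart (two-sided exact permutation p = 0.2, where 0.1 is the smallest p that 3 against 3 can give). The PBRM1 summits lay at -147 to -36 bp from the nearest *Col4a3* start, and the BRG1 summits at -41 to 255 bp. The PBRM1 peaks of replicates 1 and 3 shared no base with any of the 3 BRG1 peaks, and all 6 were joined through the wider peak of PBRM1 replicate 2. This promoter was found in every list at a low level: its mean of 0.62 ppm was at the 0.374th percentile of all 12828 regions found in all 6 lists.

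*Col4a5* and *Col4a6*, chains of the smooth muscle basement membrane, shared a promoter peak in PBRM1 replicate 1 (0.657) and in BRG1 replicates 1 to 3 (0.629, 0.56 and 0.798). It was missing in PBRM1 replicates 2 and 3. Its summits lay at -246 to -16 bp from the nearest *Col4a5* start but at -1293 to -1063 bp from the nearest *Col4a6* start. BRG1 replicate 3 had a further peak 186 bp downstream of a *Col4a6* start (0.665). *Col4a1* and *Col4a2*, the chains found in nearly every basement membrane, had a shared promoter peak in BRG1 replicate 3 alone, at 1.33 ppm, 61 bp downstream of a *Col4a1* start. Both pooled lists called this promoter, at 0.63 (PBRM1) and 1.11 (BRG1), with a low fold enrichment of 2.17 and 2.76. At the *Col4a4* and *Col4a3* promoter the pooled fold enrichment was 5.43 and 4.92, at less pileup (0.517 and 0.575). The pair with the higher pileup was therefore the pair with the lower fold over its surroundings. By antibody, 2.67 ± 1.15 of the 6 type IV genes had a promoter peak with PBRM1 and 4.67 ± 1.15 with BRG1 (SD, n = 3), and the ranges met at 4.

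The other 27 chains had a median of 3 lists and held all 8 genes without a replicate peak, with 10.3 ± 2.89 genes per PBRM1 list and 12 ± 1.73 per BRG1 list. Of the chains on fibril surfaces, *Col16a1* had the highest pooled promoter levels of all collagen genes, 1.23 (PBRM1) and 1.55 (BRG1). It measured 1.57, 1.49 and 1.17 in PBRM1 replicates 1 to 3 and 2.14 and 1.80 in BRG1 replicates 1 and 3, with no peak in BRG1 replicate 2, so that a single gap kept it out of the genes in all 6 lists. *Col12a1* and *Col14a1* had peaks in 4 lists, *Col9a2* in 3 and *Col22a1* in 1. Of the beaded filament chains, *Col6a5* had peaks in 4 lists, *Col6a1* and *Col6a2* in 3 each and *Col6a3* in 2. *Col18a1*, the source of endostatin, had peaks in 5 lists and its relative *Col15a1* in 3. *Col7a1* of anchoring fibrils and the network chains *Col8a1*, *Col8a2* and *Col10a1* had peaks in 4 lists each. *Col26a1* had peaks in 5 lists, *Col23a1* in 2 BRG1 lists and *Col28a1* in 1.

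*Col25a1* was the collagen promoter with the clearest difference between antibodies. The summit lay not at the 5′ end of the gene but 49265 bp downstream of it, at -125 bp from an internal start, in the region chr3:130180405-130181250. It measured 0.859, 0.607 and 0.625 ppm in PBRM1 replicates 1 to 3 and 1.20, 1.68 and 1.66 in BRG1 replicates 1 to 3. Every BRG1 library was above every PBRM1 library, with means of 0.697 ± 0.141 and 1.51 ± 0.275 (SD, n = 3; two-sided exact permutation p = 0.1, the smallest possible). In the fit across all regions the difference, PBRM1 minus BRG1, was -1.12 ± 0.22 (log2, SE; limma adjusted p = 5.11e-05), which lay at the 1.06th percentile of the differences of all regions. After the medians of the libraries were set equal, it was -0.65 ± 0.21 and no longer passed (limma adjusted p = 0.0616). By fold enrichment it was -0.74 and passed (limma adjusted p = 0.00778).

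Between classes, the median over all members of a class, with genes without a peak ranked lowest, was compared within each library. The fibrillar median was 0.808, 0.717 and 0.75 ppm in PBRM1 replicates 1 to 3 and 1.05 and 0.931 in BRG1 replicates 2 and 3. It fell on a gene without a peak in BRG1 replicate 1. The type IV median was 0.556 in PBRM1 replicate 1 and 0.566, 0.56 and 0.798 in BRG1 replicates 1 to 3, and fell on a gene without a peak in the others. In the 3 libraries in which both classes gave a value, the fibrillar median was the higher. With genes without a peak ranked lowest, fibrillar also stood higher in PBRM1 replicates 2 and 3, but type IV stood higher in BRG1 replicate 1. The order in the 3 libraries rests on the 2 kb limit: within 1 kb of a start the type IV median had a value in 1 library only (0.732 ppm). The other chains gave no value in any library, since over 13 of the 27 genes lacked a peak in each. In the pooled lists the medians of the fibrillar, type IV and other chains were 0.727, 0.517 and 0.468 ppm with PBRM1 and 0.907, 0.664 and 0.752 with BRG1, so that the lowest class differed between antibodies. By fold enrichment the means over libraries were 3.33 for fibrillar chains (5 libraries) and 4.22 for type IV chains (4 libraries), the opposite order. These means are not like for like, since the fibrillar mean held more PBRM1 and the type IV mean more BRG1 libraries. Median fold enrichment over all promoters with a peak was 4.61 to 4.94 in PBRM1 and 5.33 to 5.68 in BRG1 libraries. The pooled medians of fold enrichment were 3.49 and 3.43 with PBRM1 and 3.84 and 4.92 with BRG1, so that the order turned in the BRG1 list and not in the PBRM1 list.

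**Figure D2:**
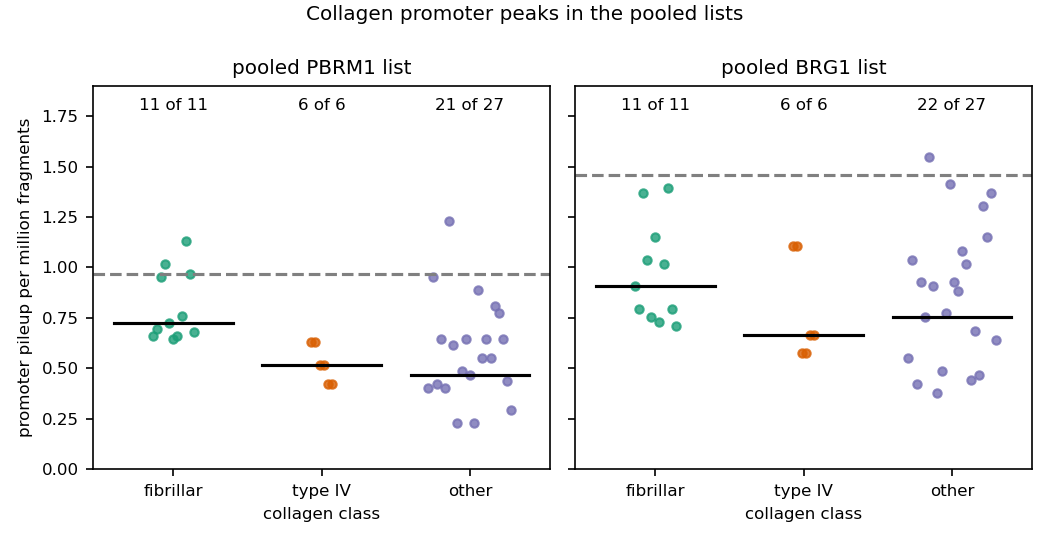
Promoter pileup (ppm) of each collagen gene with a peak (points) in the pooled PBRM1 and pooled BRG1 lists, by class, with the number of genes that had a peak. Black bars are the medians over all members of the class (a gene without a peak counted lowest) and the dashed line is the median over all protein-coding genes with a peak (0.969 and 1.46), which lies above each class median.

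Collagen promoters were poorer in CpG than the promoters that were found in every list. In the 300 bases from 250 before to 50 after the 5′ end of each gene, the ratio of CpG observed to expected had a median of 0.428 over the 44 collagen genes (quartiles 0.237 and 0.595). Over all protein-coding genes it was 0.53 (0.211 and 0.804), over genes with a peak in all 6 lists 0.761 and over genes with a peak in none 0.179. The ratio was at least 0.6 in 11 collagen promoters (25%) and in 44.7% of all. Of these 11, none had a peak in all 6 lists, 10 had a peak in 1 to 5 lists and *Col13a1* in none. Of all promoters at or above this ratio, 67.6% had a peak in all 6 lists and 26% in 1 to 5. The *Col4a1* and *Col4a2* promoters, with ratios of 0.902 and 0.818, were among the richest, and *Col3a1* held no CpG in this window. The window covers the 5′ end alone, whereas a promoter peak could lie at any annotated start. For *Col8a2*, one of the 11, the window was chr4:126286543-126286842, but the highest peaks had summits at 126301054 to 126301526. The *Col25a1* region had its summit 49265 bp downstream of the 5′ end.

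The enzymes and chaperones that make collagen were in all 6 lists more often than the chains. Of 34 listed genes of collagen biosynthesis and processing, 19 had a promoter peak in all 6 lists, 14 in 1 to 5 and 1 (*Loxl2*, a crosslinking enzyme) in none, against the shares of all genes given above. *P4hb*, a subunit of prolyl 4-hydroxylase, had the highest level, 3.84, 4.08 and 3.42 in PBRM1 replicates 1 to 3 and 5.35, 6.30 and 6.32 in BRG1 replicates 1 to 3. *P4ha1* and *P4ha2* (its catalytic subunits), *Plod1* and *Plod3* (lysyl hydroxylases), *P3h1* and *Crtap* (prolyl 3-hydroxylation) and *Colgalt1* (glycosylation) were also in all 6 lists. *Serpinh1*, the collagen chaperone HSP47, had promoter peaks in BRG1 replicates 2 and 3 and in no PBRM1 replicate, and *Lox*, which crosslinks collagen, in the 3 BRG1 replicates (1.07, 1.05 and 0.998 ppm) and in no PBRM1 replicate. Both had a peak in both pooled lists, at 1.08 (PBRM1) and 1.53 (BRG1) for *Serpinh1* and at 0.808 and 0.818 for *Lox*. The gene *P3h4* shares its promoter with *Fkbp10*, and these count as 2 of the 19.

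Away from promoters, collagen genes carried more sites per length than genes at large. Peaks with a summit in a gene body or its 20 kb flanks and over 2 kb from every annotated start numbered 98, 81 and 102 in PBRM1 replicates 1 to 3 and 104, 103 and 104 in BRG1 replicates 1 to 3. In 5.99 Mb searched this was 15.6 ± 1.86 per Mb with PBRM1 and 17.3 ± 0.0964 with BRG1 (SD, n = 3), against 11.7 ± 1.47 and 11.9 ± 0.707 in the same space around all protein-coding genes. In each of the 6 libraries the collagen density was the higher. Fibrillar genes had 21.5 ± 4.02 and 22 ± 3.55 peaks per Mb, type IV genes 18.8 ± 4.53 and 18.5 ± 1.99, and other chains 12.8 ± 1.38 and 15.4 ± 1.79. The fibrillar and type IV ranges overlapped with both antibodies. *Col8a1* and *Col5a2* held the most pooled PBRM1 peaks in the gene body (24 and 23), and *Col24a1* and *Col8a1* the most pooled BRG1 peaks (30 and 28).

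**Figure D3:**
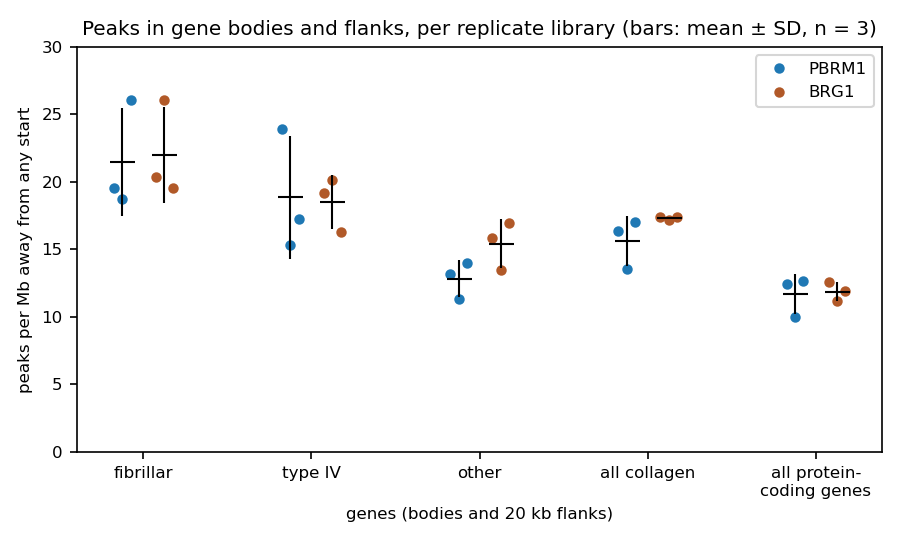
Peaks per Mb in gene bodies and 20 kb flanks, over 2 kb from any annotated start, in each replicate library (points) for the collagen classes, all 44 collagen genes and all protein-coding genes, with mean and SD (n = 3 libraries for each antibody). The points of all collagen genes lie above those of all protein-coding genes for both antibodies.

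Merged peaks gave 12828 regions present in every one of the 6 lists, and 39 of these lay in the windows of collagen genes. These were the 2 promoter regions already described, 19 regions in gene bodies and 18 in flanks. At least 1 region away from the gene's own promoter was found for 22 of 44 collagen genes (50%), against 39.7% of all protein-coding genes, whose windows are mostly shorter. In the flanks, 13 of the 18 regions lay at the start of a neighbouring gene. The other 24 regions lay at no annotated promoter, 19 of them in introns of collagen genes and none in an exon, and belonged to 15 collagen genes. Their density was 4.01 per Mb, against 2.47 around all protein-coding genes. By class it was 4.08 for fibrillar, 5.75 for type IV and 3.50 for other chains, from 5, 6 and 13 regions. The set was smaller under a stricter limit: with −log10 q of at least 5 in every list, 11 regions away from collagen promoters were found instead of 37. Over the whole genome 6505 regions were found with this limit instead of 12828.

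The *Col4a1* and *Col4a2* locus, with a peak at its shared promoter in 1 replicate list only, held 5 of the 24 sites, all in introns. In *Col4a1* they lay in intron 2, 62943 and 52832 bp from the gene start, at chr8:11249478-11250519 and chr8:11259602-11260415. In *Col4a2* they lay in intron 4, 69505 and 80627 bp from the gene start, at chr8:11382067-11382802 and chr8:11392708-11393990, and in intron 16, 99262 bp from the start, at chr8:11411903-11412807. Mean levels over the 6 libraries were 1.22 and 1.66 in *Col4a1* and 1.53, 1.61 and 1.33 in *Col4a2*, from the 59.5th to the 88.8th percentile of the 4484 regions at no annotated promoter. The stronger *Col4a1* site measured 1.21, 1.49 and 1.33 in PBRM1 replicates 1 to 3 and 1.82, 2.10 and 2.00 in BRG1 replicates 1 to 3, with no overlap. The second *Col4a2* intron 4 site measured 1.57, 1.55 and 1.38 with PBRM1 and 1.95, 1.47 and 1.73 with BRG1, and there the groups overlapped. The difference of the stronger *Col4a1* site was -0.56 ± 0.19 (log2, SE; limma adjusted p = 0.0133), and the other 4 sites, with differences of -0.27 to -0.16, did not pass. With medians set equal the stronger *Col4a1* site had -0.09 ± 0.18 (limma adjusted p = 0.807), and by fold enrichment -0.46 (limma adjusted p = 0.0408).

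**Figure D4:**
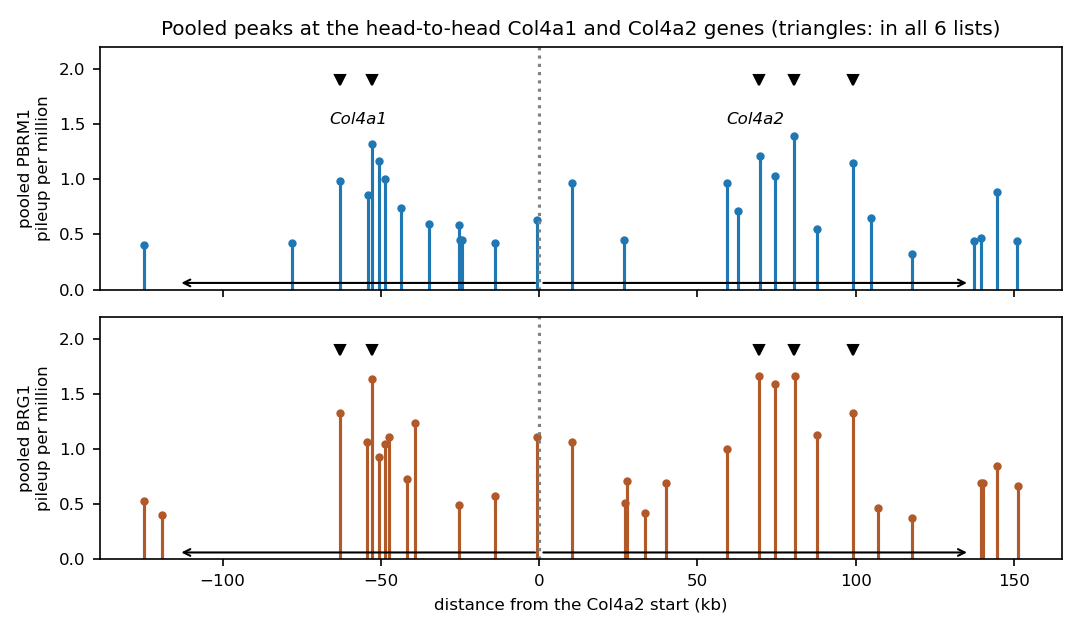
Pooled peaks along the head-to-head *Col4a1* and *Col4a2* genes, with distance from the *Col4a2* start in kb on the x axis (*Col4a1* to the left, arrows in the direction of reading) and pileup (ppm) on the y axis, for PBRM1 (top) and BRG1 (bottom). Black triangles mark the 5 intronic sites found in all 6 lists, where the pooled peaks are higher than at the shared promoter near 0.

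*Col15a1*, a chain at the surface of basement membranes, held 3 intronic sites, and those in introns 21 and 28 had means of 1.04 and 1.39. *Col16a1* held an upstream site at -10550 bp from its start (chr4:130036878-130037525) and another in intron 2 (chr4:130050208-130050977). The upstream site measured 1.67, 1.16 and 1.17 with PBRM1 and 2.14, 1.75 and 2.26 with BRG1, which did not overlap (-0.64 ± 0.20; limma adjusted p = 0.00558). With medians set equal its difference was -0.17 ± 0.18 (limma adjusted p = 0.623), and by fold enrichment -0.21 (limma adjusted p = 0.434). The intron 2 site measured 1.42, 1.43 and 1.42 with PBRM1 and 1.64, 1.47 and 1.60 with BRG1, also without overlap but at a small difference (-0.14 ± 0.20; limma adjusted p = 0.554). *Col27a1* held a site in intron 41 (chr4:63315921-63316723) with 1.72, 1.32 and 1.25 for PBRM1 and 2.08, 2.03 and 1.66 for BRG1 (-0.43 ± 0.20; limma adjusted p = 0.0531).

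The remaining sites were spread over 10 genes. *Col28a1* held sites in introns 3 and 14, *Col25a1* in introns 4 and 5, and *Col5a3* on both sides of the gene, 9041 bp beyond its end and at -16025 bp from its start. *Col5a1* (intron 4), *Col14a1* (intron 2), *Col7a1* (intron 99), *Col6a4* (intron 17) and *Col4a6* (intron 2) held 1 each, as did the flanks of *Col6a3*, 11675 bp beyond its end, and of *Col11a1*, at -11696 bp from its start. *Col6a4* had no promoter peak in any replicate list, but its intron site (chr9:106043819-106044519) was in all 6, at 0.707, 0.662 and 0.792 with PBRM1 and 0.755, 1.40 and 0.865 with BRG1. *Col6a3*, with promoter peaks in only 2 lists, had 1.52, 1.38 and 1.08 with PBRM1 and 1.38, 1.54 and 1.20 with BRG1 at its downstream site, with the groups mixed. No site in all 6 lists at no annotated promoter was found for *Col1a1*, *Col1a2* or *Col3a1*. Their strongest pooled peaks away from starts lay for *Col1a1* at -19.6 kb (PBRM1) and -7.25 kb (BRG1) from its start, with 1.57 and 1.73 ppm. For *Col1a2* they lay at -16.2 and -16.3 kb, with 1.63 and 1.44, and peaks in 5 of the 6 replicate lists overlapped them.

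Words of transcription factors were counted in windows of the longer kind, all of the same length and centred on the summit of a region. TGANTCA, the AP-1 word, was present in 9 of the 24 collagen sites at no annotated promoter (37.5%), against 22.6% of all 4484 such regions and 4.41% of regions at promoters. GGAATG (TEAD) was in 6 (25%, against 17.8%), TGTGGT (RUNX) in 5 (20.8%, against 17.5%), CCAAT in 2 (8.33%, against 19.8%), GGGCGG (Sp/KLF) in 2 (8.33%, against 10.6%) and the CArG box, the word of SRF, in none (against 1.49%). With 24 sites, each share rests on few sites, and a word is a description and not a bound factor. The AP-1 word was in the printed *Col4a1* intron 2, *Col7a1* intron 99 and both *Col16a1* sites, and in *Col4a1* it stood at 2 places near the right end. In *Col7a1* it overlapped the TEAD word. The 9 sites with the AP-1 word had a median level of 1.49 ppm (0.636 to 1.69) and the 15 without it 1.22 (0.711 to 1.68), so the ranges overlapped.

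PBRM1 and BRG1 signals were compared at the 39 collagen regions in a fit over all 12828 regions (limma on log2 ppm, 3 libraries against 3). Such a difference compares the signals of the antibodies and not the amounts of the proteins. BRG1 was higher at 19 of the 39 collagen regions, against 53.0% of all regions, and PBRM1 at 1, against 0.413%. The median difference, PBRM1 minus BRG1, was -0.44 at collagen regions and -0.49 over all regions (log2). Scaled pileup was thus higher for BRG1 nearly everywhere, and the share of collagen regions with such a difference was near that of all regions. After the medians of the libraries were set equal, 1 collagen region passed, against 4.69% of all regions. Among the 24 collagen sites at no annotated promoter, BRG1 was higher at 7, against 22.4% of such regions, and PBRM1 at 1, against 1.00%. Their median difference was -0.34, against -0.27 over all such regions. Of the 13 flank regions that lay at other genes' starts, 11 were higher with BRG1, against 5794 of all 8344 promoter regions. Their median difference was -0.71, against -0.59 over all promoter regions.

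**Figure D5:**
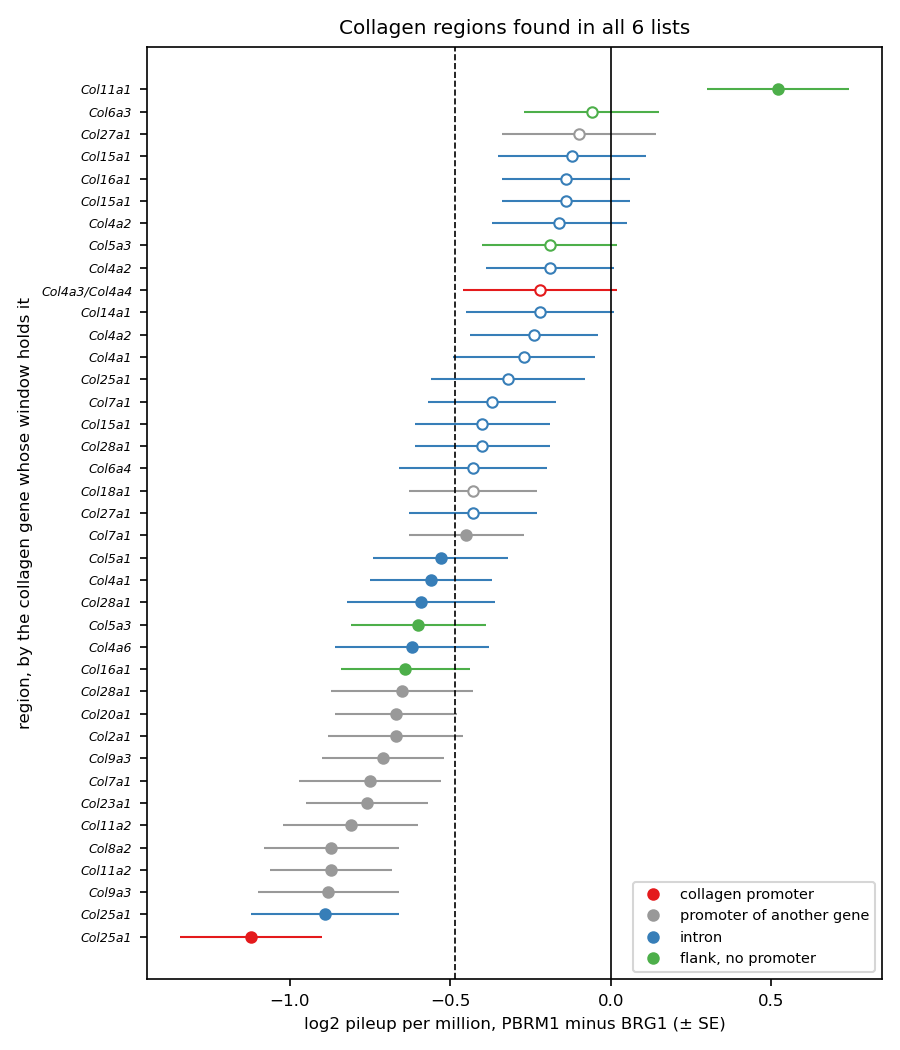
Difference in log2 ppm, PBRM1 minus BRG1, with its SE at the 39 collagen regions found in all 6 lists, sorted by size and named by collagen gene. Filled points passed limma's adjusted p of 0.05, the dashed line is the median of all 12828 regions (-0.49), and the *Col11a1* site is the only point to the right of 0.

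The site upstream of *Col11a1*, which encodes a minor chain of fibrils, was the exception (chr3:114018104-114019006). It measured 1.11, 1.16 and 1.25 in PBRM1 replicates 1 to 3 and 1.07, 0.77 and 0.665 in BRG1 replicates 1 to 3. Every PBRM1 library was above every BRG1 library, and the difference of 0.52 ± 0.22 (log2, SE; limma adjusted p = 0.0435) lay at the 99.7th percentile of all regions. With medians set equal it was 0.98 ± 0.22 (limma adjusted p = 0.00523). By fold enrichment it was -0.02 (limma adjusted p = 0.947), so the difference was held by pileup and not by the ratio to the local background. Without single libraries its adjusted p ranged from 0.0176 to 0.209 and passed only without BRG1 replicate 1.

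Of the other called sites at no promoter, all with more BRG1 signal, *Col25a1* intron 5 had the largest difference. It measured 0.859, 0.607 and 0.542 with PBRM1 and 0.944, 1.68 and 1.13 with BRG1, without overlap (-0.89 ± 0.23; limma adjusted p = 0.0012). *Col4a6* intron 2 measured 0.556, 0.552 and 0.542 with PBRM1 and 0.629, 1.12 and 0.865 with BRG1 (-0.62 ± 0.24; limma adjusted p = 0.021). The site upstream of *Col5a3* measured 1.06, 0.883 and 0.959 with PBRM1 and 1.26, 1.61 and 1.53 with BRG1 (-0.60 ± 0.21; limma adjusted p = 0.0152). In each of these 3 the BRG1 libraries were all the higher, but the share of all regions with such a separation was not counted. *Col28a1* intron 14 measured 0.758, 0.552 and 0.625 with PBRM1 and 1.07, 1.05 and 0.798 with BRG1 (-0.59 ± 0.23; limma adjusted p = 0.0252). *Col5a1* intron 4 measured 0.909, 1.55 and 1.13 with PBRM1 and 1.82, 1.40 and 1.86 with BRG1 (-0.53 ± 0.21; limma adjusted p = 0.0267), and there the groups overlapped. It passed in 2 of the 6 fits that left out a library, as did *Col28a1* intron 14. *Col4a6* intron 2 and the site upstream of *Col5a3* each passed in 3 of these 6 fits, with limma adjusted p of up to 0.164 and 0.0625. *Col25a1* intron 5 passed in all 6. With medians set equal none of these sites passed, and *Col25a1* intron 5 had -0.42 ± 0.23 (limma adjusted p = 0.273). By fold enrichment it alone among them passed, with -0.95 (limma adjusted p = 0.00217).

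The flank regions at the starts of neighbouring genes included the highest levels in collagen windows, but they belong to those genes as much as to the collagen gene. The highest was at *Pfkfb4*, a regulator of glycolysis beyond the end of *Col7a1*, with 1.87, 2.54 and 1.63 for PBRM1 and 3.02, 2.45 and 2.66 for BRG1. The region at the start of *Phykpl*, which encodes an enzyme that breaks down phosphorylated hydroxylysine, had its summit 840 bp beyond the end of *Col23a1* and measured 2.02, 1.38 and 1.42 with PBRM1 and 2.45, 2.45 and 3.19 with BRG1. The start of *Mrgbp* near *Col9a3* measured 1.72, 1.88 and 1.21 with PBRM1 and 2.77, 2.52 and 2.46 with BRG1. The groups overlapped at *Pfkfb4* alone among these 3. The start of *H2-Ke6* near *Col11a2* measured 1.47, 1.32 and 1.42 with PBRM1 and 2.64, 2.31 and 2.73 with BRG1, and that of *Arfgap1* near *Col20a1* 1.47, 1.27 and 1.42 with PBRM1 and 2.64, 2.24 and 1.80 with BRG1. *Col9a3* and *Col20a1* had no replicate peak of their own promoter and no site of their own. The other 6 called flank regions had differences of -0.88 to -0.65, and none had groups that overlapped. The share of all promoter regions with groups apart was not counted, so this cannot be read as particular to these 6. The start of *Ogfr* near *Col9a3* measured 1.01, 1.05 and 0.584 with PBRM1 and 1.20, 1.68 and 1.93 with BRG1 (-0.88 ± 0.22; limma adjusted p = 0.000858). The start of *Adprhl2* near *Col8a2* measured 1.01, 0.828 and 0.792 with PBRM1 and 1.45, 1.54 and 1.80 with BRG1. At *Ring1*, which encodes a Polycomb protein and lies near *Col11a2*, the levels were 1.31, 1.21 and 0.834 with PBRM1 and 2.14, 1.61 and 2.06 with BRG1. These 3 regions had the lowest PBRM1 value in replicate 3. The levels at *Uqcrc1*, a subunit of respiratory complex III near *Col7a1*, were 0.707, 0.828 and 1.13 with PBRM1 and 1.45, 1.47 and 1.46 with BRG1. At *Tmem106c* near *Col2a1* they were 0.909, 0.938 and 0.959 with PBRM1 and 1.26, 1.40 and 1.86 with BRG1. At *Mios* near *Col28a1* they were 1.01, 0.772 and 0.625 with PBRM1 and 1.26, 1.19 and 1.26 with BRG1. At the starts of *Slc19a1* (near *Col18a1*) and *Orm1* (near *Col27a1*) the differences of -0.43 and -0.10 did not pass.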

How the data were processed

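ChIC-Seq peak lists for PBRM1 and BRG1 in oviductal muscle cells were used. Cutadapt, Bowtie2, MACS2 and GRCm38.p5 are named in the submitters' processing notes, and read filters are not given in the sources used here. The authors' peak calls came, per the file headers, from MACS 2.2.7.1 with no control library, so that sites cut without help of the antibody may be among them. The deposited pileup is the signal (coverage by fragments) at the summit, and the deposited fold enrichment is its ratio to the local background. The deposited −log10 q was used only as a filter. The authors also deposited peak lengths in bp. Pileup was scaled to 1000000 fragments per list (ppm). Merging peaks makes regions depend on depth.

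Promoter peaks had a summit within 2 kb of any GENCODE start. Peaks sharing at least 1 bp were merged, and regions with a peak in all 6 lists were fitted with limma 3.58.1 (trend on, adjusted p under 0.05 by Benjamini-Hochberg). That fit, tested on simulated data for PBRM1 minus BRG1 over 12828 regions, called 51 of 100 regions changed by a log2 of 1, 100 of 100 changed by 2, and 9 unchanged ones. The simulated libraries were drawn independently, with no shift between antibodies over all regions. These counts therefore do not give the error rate of the fit to the data. Single promoters were compared by two-sided exact permutation. Python 3.11.15, pandas 2.3.3 and pysam 0.24.0 were used, and no peak ended beyond a GRCm38.p6 chromosome.

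The collagen classes, the biosynthesis and marker lists and the members were chosen with earlier results of these data known. Genes named in full were, by class, those with the highest promoter levels among genes in all 6 lists, called regions, the 8 strongest regions away from promoters and the head-to-head type IV pairs. Other values were named after they were seen. Sequences were read from the RefSeq copy of GRCm38.p6. Alternatives were other promoter distances, start sets, limits on q, numbers of peaks, flanks, scalings and libraries left out. A single intronic site is not reported here.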

Additional observations from a re-analysis of the deposited data

How the results depend on the processing

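Collagen genes with a promoter peak in all 6 lists numbered 8 within 5 kb of a start and 0 with −log10 q of at least 5, and 3 to 7 without single libraries, with 7 without PBRM1 replicate 2 and 5 without BRG1 replicate 1. The shares of all protein-coding genes were 45.8% within 5 kb, 27.2% with the q limit and 42.2% to 44.1% without single libraries. Genes in no list numbered 20 with the q limit and 8 to 10 without single libraries. Genes per PBRM1 list were 26.3 within 5 kb and 4.33 with the q limit (19.5 to 23.5 without single libraries), and per BRG1 list 27.7 and 9.33 (22 to 24). Class medians by fold enrichment were 3.33 (fibrillar) and 4.22 (type IV), over libraries that were not the same. Class medians by pileup without single libraries were 0.802 to 0.885 and 0.561 to 0.641 ppm. Within 1 kb of a start they were 0.835 over 5 libraries and 0.732 in 1 library. With the q limit no class median could be given. At the *Col4a4* and *Col4a3* promoter the difference turned to 0.205 by fold enrichment (chosen after seeing the data). The 37 regions away from collagen promoters became 20 with 5 kb flanks, 19 without flanks, 11 with the q limit, 24 away from every start (chosen after seeing the data) and 37 to 42 without single libraries. Calls over all regions fell from 6852 to 602 with medians set equal and 1399 by fold enrichment (5027 to 6460 without single libraries), and collagen calls from 20 to 1 and 4, with 8 under the q limit, for which fewer regions were tested (15 to 19 without single libraries). Medians set equal together with the replicate block gave 685 and 1 calls, and together with a left-out library 461, 342 and 300 without PBRM1 replicates 1 to 3 and 286 without BRG1 replicate 1 (182 to 586 over all 6) and 0 to 2 collagen calls (both chosen after seeing the data). Single regions that turned were *Col5a1* intron 4 (0.02) and the *Col11a1* site (-0.02) by fold enrichment, and the *Pfkfb4* region near *Col7a1* by fold enrichment (0.03) and with medians set equal (0.02). The cause of these shifts was not tested. No pairing by replicate number was seen: deviations of same-numbered libraries had correlations of -0.0288 to 0.00349, and those of other pairs -0.0301 to 0.0311. With 3 libraries per antibody and low pileups, these values cannot exclude pairing. With the replicate block 6638 regions and 20 collagen regions passed. Replicate lists of 14284532 to 23992352 fragments could not show promoter signal under about 0.333 to 0.42 ppm, and fewer bound cells and less signal per cell cannot be told apart.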
